A study of Mus musculus with 2 samples.

Results

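MHC class II molecules display peptides from captured proteins to CD4 T cells. The 8 genes described here make and load those molecules, and they were chosen by name from 31053 genes counted in both libraries. H2-Aa and H2-Ab1 encode the α and β chains of I-A, and H2-Eb1 encodes the β chain of I-E. Cd74 encodes the invariant chain, which fills the peptide groove and escorts the chains to endosomes. H2-DMa pairs with the product of H2-DMb1 or H2-DMb2 to form the peptide editor H2-M, and Ciita encodes the coactivator that switches the whole set on. B cells, dendritic cells and macrophages carry class II constantly. Intestinal epithelium carries it under interferon gamma and microbial colonisation, and mouse T cells largely lack it. C57BL/6 mice carry a defective I-E α chain gene, so the β chain made from H2-Eb1 is not displayed as I-E at their cell surface.

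On the mm10 build 6 members lie within the class II region of chromosome 17, which holds H2-DMa at chr17:34119541-34139101, H2-DMb2 at chr17:34143307-34151555, H2-DMb1 at chr17:34153072-34160230, H2-Ab1 at chr17:34257689-34269419, H2-Aa at chr17:34282744-34287823 on the minus strand and H2-Eb1 at chr17:34305867-34316674. Ciita lies at chr16:10480059-10528418 and Cd74 at chr18:60803848-60812652.

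The 2 libraries came from fresh small intestine of C57BL/6j mice aged 60 days, taken 24 hours after 1 injection of tamoxifen at 6 mg per 40 g. One was from a Tg mouse, Mdm2+/- Cag-CreERTg, described as keeping Mdm2, and one from an FMTg mouse, Mdm2FM/- Cag-CreERTg, described as losing Mdm2 with acute activation of p53, the transcription factor that Mdm2 restrains. Both mice carried 1 Mdm2 allele written as deleted and the CreER transgene, whose CAG promoter is active in most cell types, so recombination need not be limited to the epithelium. With 1 mouse and 1 library per genotype, no test between genotypes was possible and the differences below have no replicate check. Intervals are exact 95% intervals that cover counting error only.

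After filtering, 2913 Tg and 2675 FMTg cells remained, with a median of 4938 and 4710 unique molecular identifiers (UMIs, 1 for each captured transcript). Cells were clustered without the 8 genes and classes were named from markers, none of which is a class II gene, so each class is called "-like". All markers of the B (10), T (12), villus (11) and crypt (11) lists were detected in their own class in both libraries. Of 17 macrophage markers, 15 were detected in FMTg C1q macrophage-like cells. Detection alone does not separate classes, since all 11 villus markers were also detected in B-like, T-like and crypt cells. The median share of mitochondrial UMIs was 11.7% in Tg and 14.8% in FMTg cells. The libraries shared 14 barcodes, of which 4 were kept. Across all kept cells Mdm2 was at 93.0 CPM (a gene's UMIs per 1000000 UMIs) in the Tg library and 142 CPM in the FMTg library. These 3′ tags need not lie in the recombined part of the gene, so they do not check the genotype. Levels below are CPM of all UMIs of a class in 1 library. UMIs are counted at transcript ends, so levels were not divided by length. "Higher" and "lower" describe the FMTg library relative to the Tg library on the log2 scale.

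Class II promoters are known for an X box, bound by the RFX complex, upstream of a Y box, bound by NF-Y, on which Ciita is recruited. The RefSeq promoter table (GRCm38.p6) held 5 of the 8 members. Shown because they bear on the shared regulator are the 150 bases before the start site of the 4 that hold at least 1 of the motifs searched, on the strand of the gene, at chr17:34287824-34287973 (H2-Aa, minus), chr17:34305717-34305866 (H2-Eb1), chr17:34153041-34153190 (H2-DMb1) and chr17:34145099-34145248 (H2-DMb2). Capitals mark the X box letters AACNGATG and the Y box letters TGATTGG.
H2-Aa: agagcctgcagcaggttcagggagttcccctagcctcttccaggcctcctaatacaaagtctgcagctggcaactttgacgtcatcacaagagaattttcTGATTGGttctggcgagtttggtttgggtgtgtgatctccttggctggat
H2-Eb1: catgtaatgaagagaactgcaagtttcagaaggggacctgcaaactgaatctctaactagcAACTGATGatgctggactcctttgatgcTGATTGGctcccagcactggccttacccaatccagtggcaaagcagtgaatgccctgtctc
H2-DMb1: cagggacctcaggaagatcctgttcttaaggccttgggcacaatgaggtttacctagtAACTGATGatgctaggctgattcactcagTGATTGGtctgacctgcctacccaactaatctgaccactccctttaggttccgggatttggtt
H2-DMb2: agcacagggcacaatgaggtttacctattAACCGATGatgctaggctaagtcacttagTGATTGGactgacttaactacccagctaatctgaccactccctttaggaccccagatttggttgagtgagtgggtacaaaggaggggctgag
The pair stood 20 bases apart in H2-Eb1 and 21 bases apart in both H2-DMb genes, with the Y motif beginning 61, 63 and 92 bases before the RefSeq start of H2-Eb1, H2-DMb1 and H2-DMb2. In H2-Aa the Y motif began 50 bases before the start and the X letters had no match. In H2-DMa neither motif was matched. Over 32851 promoter windows of 250 bases before to 50 after the start, read on both strands, 7.82% held TGATTGG, 2.32% held AACNGATG and 0.186% held both. The motifs do not overlap each other, and a match is a description of letters only.

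Class II transcripts were concentrated in B-like cells. These were 15.1% of Tg and 17.8% of FMTg cells and 5.38% and 6.84% of all UMIs, and they held 45.2% and 42.6% of all member UMIs. Villus enterocyte-like cells held 25.01% and 28.5% of the member UMIs, less than their 47.4% and 42.9% of all UMIs. Germinal-centre B-like cells held 10.2% and 11.1%. T-like cells, the most numerous class, held 1.37% and 1.35%. Among the 7 classes described here, the order of the summed levels in the Tg library was B-like (25850 CPM), germinal-centre B-like (14125 CPM), C1q macrophage-like (9311 CPM), crypt progenitor-like (1909 CPM), villus enterocyte-like (1623 CPM), Fn1/Vcan macrophage-like (358 CPM) and T-like (207 CPM). In the FMTg library C1q macrophage-like cells, at 14004 CPM, stood above germinal-centre B-like cells at 12844 CPM. There, villus cells at 2355 CPM stood above crypt cells at 1256 CPM. Fn1/Vcan macrophages were at 2183 CPM, but at 354 CPM without 1 cell, below crypt cells. Plasma-like cells, not described further here, stood between C1q macrophages and epithelium in both libraries, at 2368 and 3016 CPM. In the orders of the 7 classes the counting intervals of neighbours overlapped only for FMTg villus and Fn1/Vcan cells, and the spread between mice is not known. Over all kept cells the sum was 3077 CPM in the Tg and 3535 CPM in the FMTg library, a log2 ratio of 0.20 (0.19 to 0.21). No member was past 1.5-fold there (0 of 8 higher and 0 of 8 lower), against 12.1% higher and 9.75% lower of 14110 genes.

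**Figure D1:**
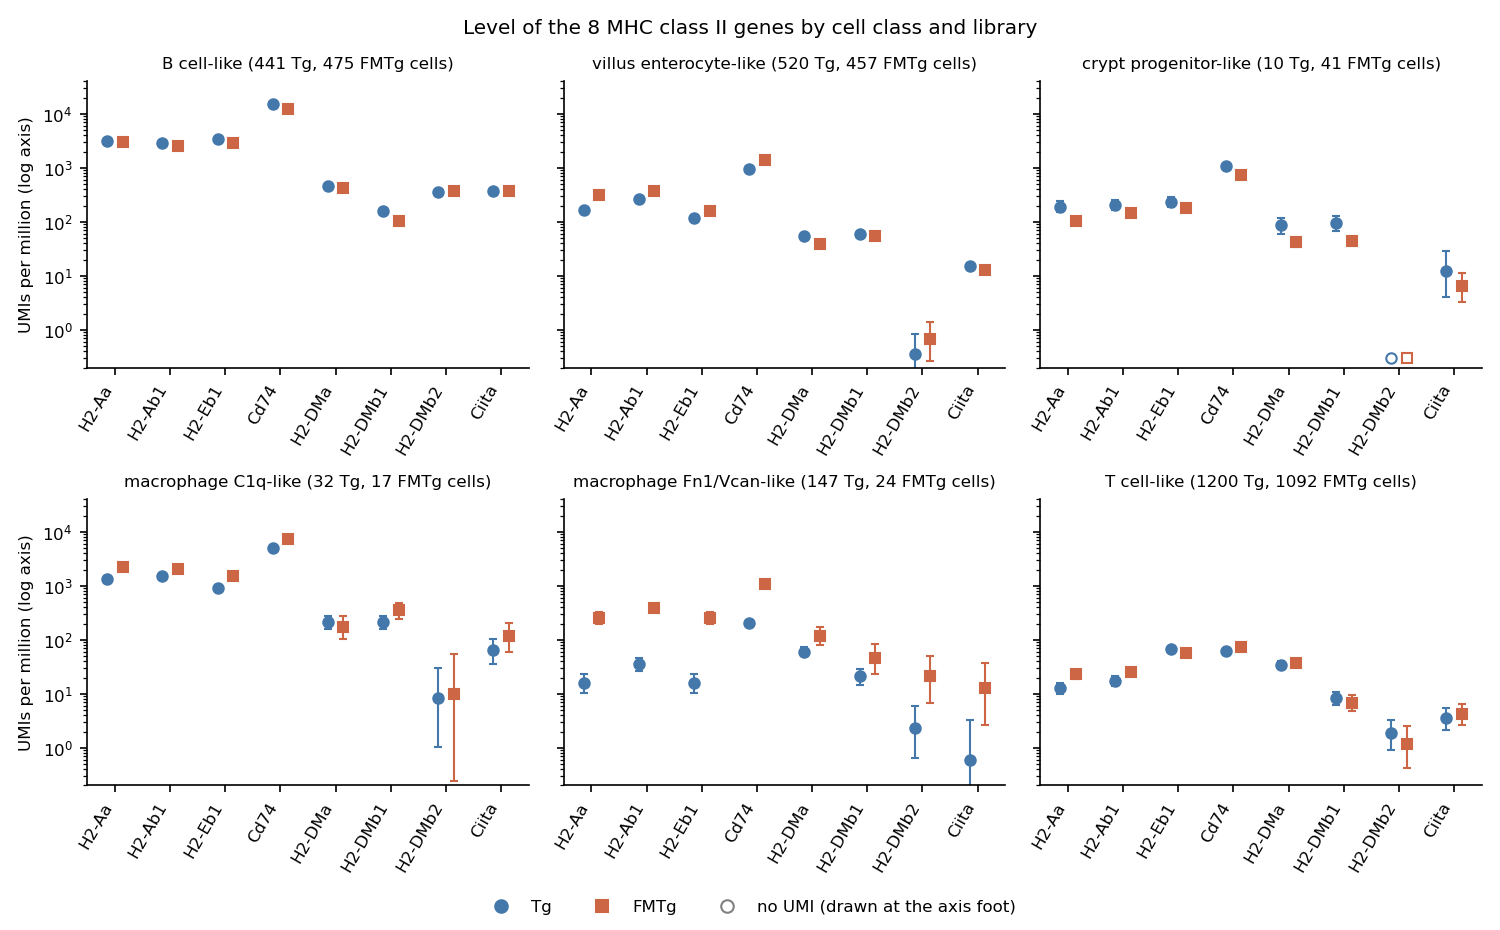
Level of each of the 8 genes in each cell class on a log axis, in CPM of the class, with circles for the Tg and squares for the FMTg library and exact 95% Poisson intervals. Cd74 is the most abundant member in most classes, and H2-DMb2 is near 0 in epithelium and C1q macrophages but not in B cells.

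The direction of the genotype difference was not the same in all classes. The sum was lower in B-like cells (-0.23) and crypt progenitor-like cells (-0.60), and higher in villus enterocyte-like (0.54) and C1q macrophage-like cells (0.59). In the C1q-led cluster, which holds most member UMIs of its class, the C1q value was the opposite, -0.41. That value leaned on single cells, so its direction is not settled. The Fn1/Vcan value of 2.61 and the T-like value of 0.14 also rested on single cells, as described below. The differences between classes were not tested.

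**Figure D2:**
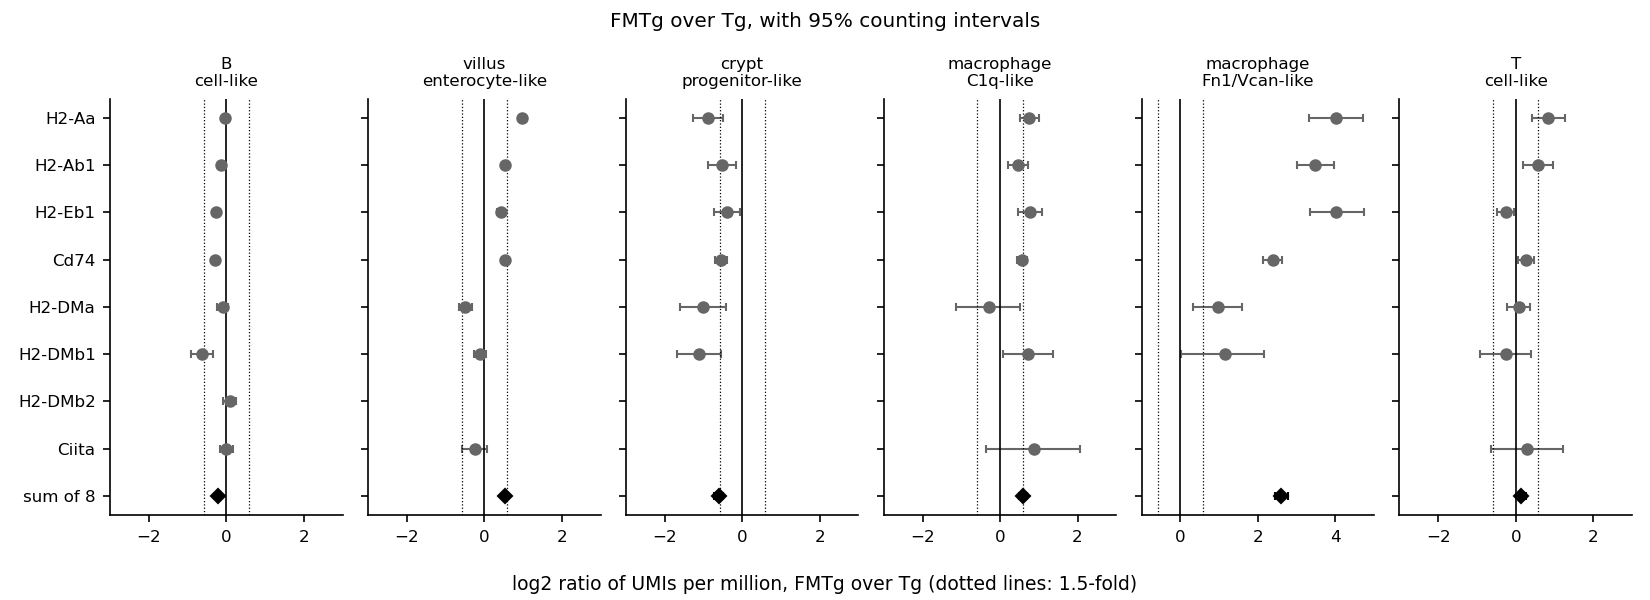
Log2 ratio of FMTg over Tg for each member and their sum in each class, with exact 95% counting intervals; the axis range differs between panels. Values right of 0 are higher in the FMTg library, as for the 4 most abundant members in villus cells, and values left of 0 are lower, as for the 6 members measured in crypt cells.

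B cells present antigen to helper T cells, and the B-like class (441 Tg and 475 FMTg cells) had the highest class II level among the classes described here. Cells with dendritic cell markers in an unnamed cluster stood higher, at 28076 CPM in the Tg and 37729 CPM in the FMTg library. The C1q-led macrophage cluster also stood higher in the Tg library, at 28477 CPM. Every B-like cell carried at least 10 member UMIs. Per cell, the summed level had a median of 26449 CPM in Tg cells (10th to 90th percentile 17583 to 34837) and 22240 CPM in FMTg cells (15342 to 29572). The 2 distributions overlapped over most of their range. Cd74, at 15034 CPM in the Tg and 12221 CPM in the FMTg library, was 58.2% and 55.5% of the member UMIs and differed by -0.30 (-0.33 to -0.27). The α chain gene H2-Aa differed less, with 3168 and 3079 CPM (-0.04). The β chain gene H2-Ab1 was at 2842 and 2587 CPM (-0.14), and H2-Eb1 at 3447 and 2850 CPM (-0.27, -0.33 to -0.22). Among these 4 abundant members the shortfall was larger in Cd74 and H2-Eb1 than in the I-A chain genes, whose intervals lay above that of Cd74.

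The peptide editor genes of B-like cells did not move together. H2-DMb1 had 254 UMIs (161 CPM) in the Tg and 175 UMIs (105 CPM) in the FMTg library, a log2 ratio of -0.62 (-0.91 to -0.34). Its neighbour H2-DMb2 had 563 UMIs (358 CPM) and 629 UMIs (377 CPM), a ratio of 0.08, and H2-DMa had 463 and 431 CPM (-0.10). The regulator Ciita was at 377 CPM in both libraries. H2-DMb1 was the 1 of 8 members at least 1.5-fold lower, and 0 of 8 were at least 1.5-fold higher. Over the 8301 genes with at least 20 UMIs in this class, 11.4% were that much lower and 6.52% that much higher. The member median was -0.12 and the median of all genes was -0.08. The -0.62 of H2-DMb1 lay close to the 1.5-fold limit and was inside it with TMM scaling and in 7 other alternative settings.

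Among 10 partner genes of the class II pathway, 9 could be measured in B-like cells. H2-Ob and H2-Oa encode the chains of H2-O, an inhibitor of H2-M found mainly in B cells. H2-Ob had 132 CPM in the Tg and 292 CPM in the FMTg library (1.14, 0.91 to 1.38), whereas H2-Oa had 205 and 241 CPM (0.23). H2-Eb2, a further β chain gene, was at 0.75 (0.33 to 1.18), and the costimulatory gene Cd86 was at -0.70. These made 2 partners at least 1.5-fold higher and 1 lower, with a list median of 0.05. The cysteine protease Ctss, which trims the invariant chain, was at -0.13.

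The regulators measured in B-like cells numbered 10, of which 1, the RFX subunit gene Rfxank (-0.77), was past 1.5-fold. Another RFX subunit gene, Rfx5, was at 0.44, and the B cell transcription factor genes Irf8, Irf4 and Spi1 were at -0.38, -0.46 and -0.22. The list median was -0.23. In the interferon gamma list 3 of 10 were at least 1.5-fold lower and 0 higher, with a median of -0.28. The interferon-induced GTPase genes Igtp and Gbp2 were at -0.84 and -0.72, the feedback inhibitor Socs1 at -0.66, the transcription factor Irf1 at -0.50 and the receptor kinase Jak1 at 0.10. MHC class I presentation genes had a median of -0.02 with 0 of 11 past 1.5-fold, among them H2-T23 at 0.45, the immunoproteasome subunit Psmb9 at -0.42, the peptide transporter Tap1 at 0.37, H2-K1 at -0.19 and B2m at 0.07.

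Germinal-centre B-like cells (67 Tg and 68 FMTg) were at 14125 CPM in the Tg and 12844 CPM in the FMTg library, a ratio of -0.14 (-0.18 to -0.10), and 0 of 8 members were past 1.5-fold in either direction, against 7.46% higher and 15.6% lower of all genes. This class joined a cluster with Ighg1 and Mef2b among its leading genes at 22033 and 16689 CPM (-0.40) and a cluster led by cell cycle genes at 9992 and 9829 CPM (-0.02). In the latter, 9 Tg and 2 FMTg cells carried more T than B marker UMIs. Over the 57 Tg and 62 FMTg cells of the class with more B than T marker UMIs, the sum was at 16620 and 13205 CPM, a ratio of -0.33 (-0.37 to -0.29). In those cells the 2 clusters were alike, at -0.35 and -0.36. Among the lists, the class I genes H2-Q7 and H2-K1 were at -2.59 (-3.38 to -1.87) and -0.76 (-0.97 to -0.56), and Ifngr1 at -1.19 (-1.95 to -0.47).

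Villus enterocytes absorb nutrients and can display class II, and in the villus enterocyte-like class (520 Tg and 457 FMTg cells) the class II chains were higher in the FMTg library. H2-Aa had 2266 UMIs (163 CPM) in the Tg and 3355 UMIs (321 CPM) in the FMTg library, a log2 ratio of 0.98 (0.90 to 1.05). Cd74 had 948 and 1384 CPM (0.55, 0.51 to 0.58), H2-Ab1 263 and 382 CPM (0.53, 0.47 to 0.60), and H2-Eb1 119 and 161 CPM (0.43, 0.34 to 0.53). The α chain gene of I-A thus had a larger ratio than its β chain gene, with intervals that did not overlap.

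Over the whole villus class the peptide editor and the regulator were not higher with the chains, although the clusters differed in this, as given below. H2-DMa had 758 UMIs (54.6 CPM) in the Tg and 407 UMIs (39.0 CPM) in the FMTg library, a ratio of -0.49 (-0.66 to -0.31). H2-DMb1 had 59.0 and 54.4 CPM (-0.12, -0.27 to 0.04), and Ciita 15.1 and 12.7 CPM (-0.24, -0.57 to 0.08). H2-DMb2 had 5 and 7 UMIs. One of 7 measured members, H2-Aa, was at least 1.5-fold higher and 0 were lower, against 15.7% higher and 11.6% lower of 10497 genes. The member median was 0.43 and that of all genes 0.06.

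The villus sum did not rest on a few cells, since the highest cell held 1.69% of the Tg and 1.40% of the FMTg member UMIs. The per-cell values that follow pool clusters held in unequal shares. Cluster 9, with a median of only 1394 UMIs, held 117 Tg and 15 FMTg cells. The per-cell median was 985 CPM in Tg and 1909 CPM in FMTg cells, and the 90th percentile 3586 and 4957 CPM. Median depth differed, at 25879 UMIs in Tg and 19687 in FMTg cells, as did the mitochondrial share, at 17.0% and 19.1%. With each cell thinned to 1000 UMIs, 60.5% (55.9% to 64.8%) of Tg and 68.7% (64.2% to 73.0%) of FMTg villus cells carried a UMI of any member, with intervals that overlapped. Cd74 was found in 47.2% and 55.7%. Unthinned, Cd74 was found in 78.7% and 91.2%. In T-like cells, which should lack these genes, 16.6% and 15.9% carried a member UMI at the same thinned depth, with unthinned medians of 4863 and 4577 UMIs. Leukocyte lists did not share 1 direction in villus cells. The T cell list was at 77.1 CPM in the Tg and 77.7 CPM in the FMTg library. The neutrophil list (6.99 and 1.72 CPM) and macrophage list (5311 and 4120 CPM) were lower. The plasma cell list (137 and 270 CPM) and innate lymphoid list (20.4 and 31.0 CPM) were higher. The list of 10 B cell markers, all detected, had 167 UMIs in the Tg and 203 UMIs (19.4 CPM) in the FMTg library, Cd79a was at 4.04 and 11.6 CPM (1.52, 1.05 to 2.01) and Ptprc had 86 and 135 UMIs (1.06, 0.66 to 1.47). At the ratio of members to 4 B cell markers in B-like cells, the 123 and 170 UMIs of those 4 markers in villus cells would carry 2.64% and 3.08% of the villus class II level. The dendritic cell list was at 18.8 and 10.9 CPM with 4 of 10 markers detected, and C1qa had 5 and 3 UMIs.

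The villus class held 5 clusters, in which the libraries had unequal shares. In cluster 4, led by brush border genes such as Lct and Anpep, 156 Tg cells were at 1802 CPM and 107 FMTg cells at 3351 CPM (0.89, 0.85 to 0.94). There H2-Aa had 193 and 484 CPM (1.33) and Ciita 12.4 and 22.2 CPM (0.84, 0.31 to 1.38), so the regulator too was higher in this cluster. The editor genes there were at 0.24 (H2-DMa) and 0.41 (H2-DMb1). Cluster 3, with Apoa4 among its leading genes, held 24 Tg cells at 1125 CPM and 240 FMTg cells at 2181 CPM (0.95, 0.82 to 1.09). H2-DMa was low in that cluster in both libraries, with 9 and 96 UMIs (-0.06), and H2-DMb1 was at 25.5 and 31.9 CPM (0.32). Cluster 6, led by the antimicrobial Reg3 genes, differed less, with 137 and 66 cells at 1582 and 1828 CPM (0.21, 0.15 to 0.27), H2-DMa at -0.27 and H2-DMb1 at 0.19. Cluster 9, of 117 and 15 cells with a median of only 1394 UMIs, was at 620 and 1885 CPM (1.60, 1.12 to 2.07).

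Cluster 11 went the other way. It was led by Reg1 and metal and sulphate transport genes, and its 86 Tg cells were at 1568 CPM and its 29 FMTg cells at 917 CPM (-0.77, -0.89 to -0.66), with H2-Aa at -1.26, H2-DMa at -0.84 and H2-DMb1 at -1.33. The class values of the editor genes thus pool clusters with different levels, cell numbers and directions. The antimicrobial gene Reg3b was also lower in this cluster, at -1.03. The sum was thus higher in 4 of the 5 clusters and lower in 1.

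**Figure D3:**
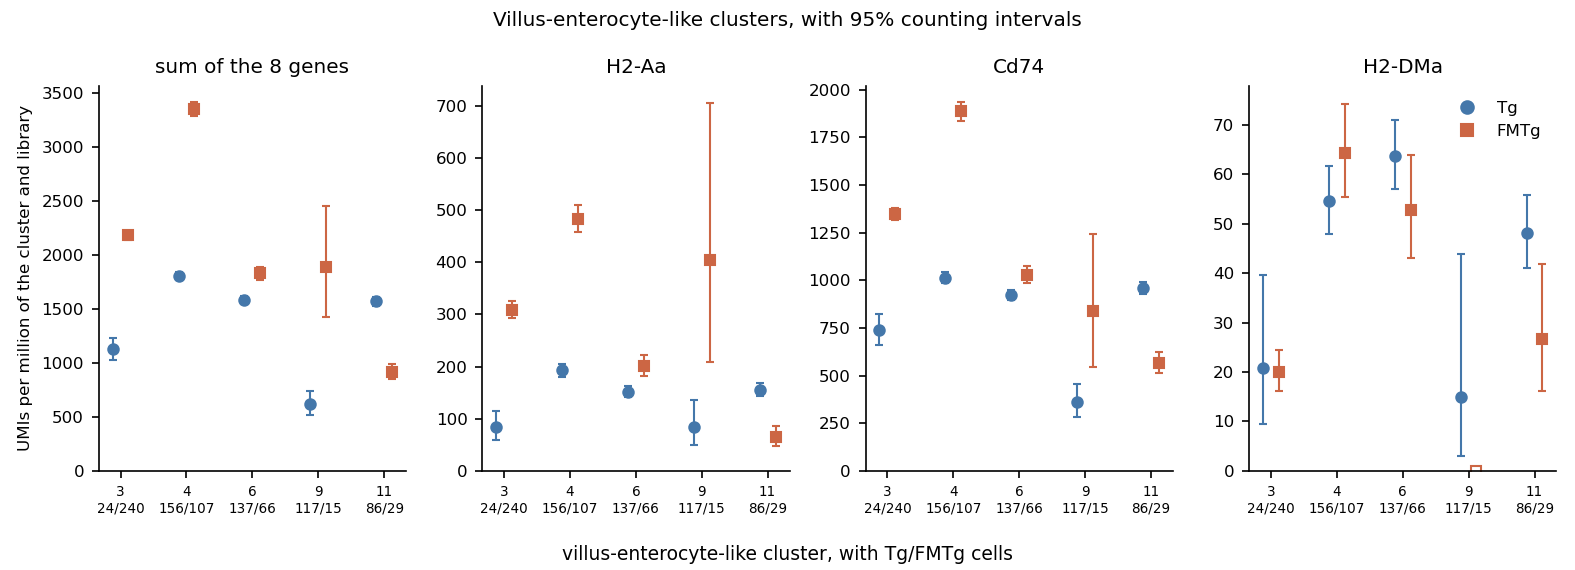
Summed class II level, H2-Aa, Cd74 and H2-DMa in the 5 villus clusters, in CPM of the cluster on linear axes, with the Tg and FMTg cell numbers under each cluster, circles for Tg, squares for FMTg and exact 95% Poisson intervals; the open symbol stands for 0 UMIs. The FMTg sum lies above the Tg sum in clusters 3, 4, 6 and 9 and below it in cluster 11.

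The other genes of the pathway in villus cells had mixed directions. Lgmn, an endosomal protease that begins invariant chain breakdown, had 23.6 CPM in the Tg and 69.4 CPM in the FMTg library (1.56, 1.37 to 1.75) and was the 1 of 4 measured partners past 1.5-fold, beside Ctsl at 0.55 and Ctss at 0.11. Of 9 regulators 2 were at least 1.5-fold higher and 0 lower, with a median of 0.33. They were Prdm1, a repressor of Ciita in plasma cells, at 5.62 and 26.3 CPM (2.23, 1.86 to 2.61), and the NF-Y subunit gene Nfya (0.91, 0.53 to 1.30). Nfyb was at 0.49 and Irf8 at -0.22.

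The interferon gamma list had 2 genes higher and 1 lower of 10 in villus cells, with a median of 0.17. The receptor genes Ifngr1 and Ifngr2 were at 0.23 and 0.19, the receptor kinase gene Jak2 at 0.67 and Socs1 at 0.69, while Igtp was lower at 123 and 63.9 CPM (-0.95, -1.08 to -0.82). Class I presentation genes had a median of 0.42, with 3 of 11 higher and 1 lower. H2-T23 was at 130 and 261 CPM (1.01), H2-K1 at 1976 and 2841 CPM (0.52), B2m at 0.50, Tap1 at 0.72, the class I coactivator gene Nlrc5 at 0.98 (0.29 to 1.69) and Psmb9 at -0.74.

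Crypt progenitor-like cells, the dividing cells that renew the epithelium, had the opposite direction to villus cells. The class held 10 Tg and 41 FMTg cells, all in 1 cluster with Olfm4 among its leading genes, and the sum was 1909 CPM in the Tg and 1256 CPM in the FMTg library (-0.60, -0.72 to -0.48). Cells ranged from 0 to 3533 CPM with a median of 1328 in Tg and from 0 to 4329 CPM with a median of 797 in FMTg. The single-cell ranges overlapped, and the highest cell held 26.2% of the Tg and 10.3% of the FMTg member UMIs.

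All 6 members measured in crypt cells were lower. The invariant chain gene Cd74 had 437 UMIs (1078 CPM) in the Tg and 1385 UMIs (735 CPM) in the FMTg library (-0.55, -0.71 to -0.39). H2-Aa was at 192 and 104 CPM (-0.89, -1.27 to -0.49), H2-Ab1 at 207 and 144 CPM (-0.53) and H2-Eb1 at 237 and 180 CPM (-0.40, -0.73 to -0.05). The editor genes had the largest differences, H2-DMa with 35 and 80 UMIs (86.3 and 42.5 CPM, -1.02, -1.61 to -0.41) and H2-DMb1 with 39 and 83 UMIs (96.2 and 44.1 CPM, -1.13, -1.69 to -0.54). Thus 3 of 6 were at least 1.5-fold lower and 0 higher, against 12.6% lower and 15.7% higher of 7603 genes. The member median was -0.72 and that of all genes -0.04. Ciita had 5 and 12 UMIs, too few to measure.

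Crypt interferon gamma genes were mostly below 0. Of 9 measured, 4 were at least 1.5-fold lower and 0 higher, with a median of -0.44. They included Irf1 (-1.10, -1.69 to -0.48), Igtp (-1.29, -1.95 to -0.60) the GTPase gene Irgm1 (-0.66) and Socs1 (-0.94, on 24 UMIs). The immunoproteasome subunit genes Psmb8 (-0.996, -1.20 to -0.78) and Psmb9 (-0.96, -1.24 to -0.68) were also lower, as was Tap2 (-1.50), while H2-T23 was at 0.71. This made 3 of 10 class I genes lower and 1 higher with a median of -0.04, B2m at 0.20 and H2-Q7 at 0.47. Of 6 regulators, 2 were at least 1.5-fold lower, the factor gene Irf8 (-0.61) and the NF-Y subunit gene Nfyc (-0.70), whereas Nfyb was at 0.53. Lgmn, with 3 and 42 UMIs, was the 1 of 3 partners past 1.5-fold, at 1.59 (-0.05 to 3.93).

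Crypt marker levels differed between the libraries in the same class. The crypt list summed to 1475 CPM in the Tg and 955 CPM in the FMTg library, and the villus list to 1475 and 2473 CPM. The villus antimicrobial gene Reg3b was taken as a measure of free RNA from enterocytes. It stood in crypt cells at 7.80% of its villus level in the Tg and 26.4% in the FMTg library. The villus marker Apoa1 was at 126 CPM in crypt and 14131 CPM in villus cells of the Tg library. In the FMTg library it was at 233 and 24689 CPM, in both libraries a far smaller share than that of Reg3b. If members came along in the ratio of Reg3b, free RNA from villus and B-like cells would make up 7.88% of the Tg and 52.9% of the FMTg crypt level. These shares depend on the gene used, and whether crypt cells make Reg3b themselves was not tested. Ptprc, the pan-leukocyte gene, had 0 and 10 UMIs, C1qa had 0 in both and 2 of 10 B markers were detected in each library. Several other lists were higher in the FMTg crypt class. The T cell list was at 4.93 and 51.5 CPM, goblet at 180 and 635 CPM and enteroendocrine at 9.86 and 213 CPM. The tuft list was at 0 and 61.1 CPM and the Paneth list at 4.93 and 70.1 CPM. The germinal-centre B list was lower, at 286 and 232 CPM. The part of these differences in the crypt result was not tested.

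Macrophages of the gut were split into a C1q subtype, typical of resident macrophages, and an Fn1/Vcan subtype, typical of cells recently derived from monocytes. Summed over each subtype, class II was higher in the C1q subtype within both libraries. In the Tg library the sum was 9311 CPM in 32 C1q cells and 358 CPM in 147 Fn1/Vcan cells, a 26.0-fold difference (23.8 to 28.5). That excess lay in the C1q-led cluster, where 21 Tg cells were at 28477 CPM. The other 11 Tg C1q cells, in the Fn1-led cluster, were at 250 CPM, below the Fn1/Vcan cells. In the FMTg library it was 14004 CPM in 17 and 2183 CPM in 24 cells, a 6.41-fold difference (5.79 to 7.11). Without the highest Fn1/Vcan cell of each library, the Fn1/Vcan sum was 263 and 354 CPM and the folds were 35.4 (31.9 to 39.3) in the Tg and 39.5 (31.5 to 50.2) in the FMTg library. H2-Aa differed most in the Tg library among members with at least 20 UMIs in each subtype, at 84.1-fold, and H2-DMa least, at 3.50-fold.

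Within the C1q subtype the summed members gave opposite directions in its 2 clusters, each leaning on single cells. Over the whole class H2-Aa was at 1337 and 2261 CPM (0.76), H2-Ab1 at 1516 and 2085 CPM (0.46), H2-Eb1 at 904 and 1549 CPM (0.78) and Cd74 at 5057 and 7455 CPM (0.56). H2-DMb1 was at 0.72, H2-DMa at -0.28, and Ciita had 15 and 12 UMIs (0.88, -0.35 to 2.07). This made 4 of 7 members at least 1.5-fold higher, against 17% of 2541 genes, and 0 lower, against 27%. In the cluster led by C1qa itself, however, 21 Tg cells were at 28477 CPM and 12 FMTg cells at 21466 CPM. The ratio was -0.41 (-0.52 to -0.30), and all 8 members were lower, although H2-DMb2 had only 2 and 1 UMIs there and Ciita only 14 and 7. In that cluster 1 FMTg cell had 12911 UMIs but only 7 member UMIs, and 1 Tg cell held 790 of the 2153 member UMIs. That FMTg cell was at 542 CPM and that Tg cell at 38659 CPM. The ratio leans on these cells, so its direction is not settled. A ratio of the cluster without them was not computed. The remaining 11 Tg and 5 FMTg cells lay in the Fn1-led cluster at 250 and 7592 CPM. There, 1 FMTg cell held 367 of the 419 member UMIs and 158 C1q UMIs. These few cells hold 67.9% and 53.8% of the class's UMIs, so the value of the whole class follows the mix of the 2 clusters. The median C1q cell was at 17424 CPM in the Tg and 10769 CPM in the FMTg library. The class also differed in genes of other cells. The 4 B cell markers had 8 and 14 UMIs (34.0 and 136 CPM). The T cell list had 267 and 23 UMIs, with 10 and 2 of 12 detected. The part of these differences in the C1q values was not tested.

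In the Fn1/Vcan subtype 1 cell carried nearly all of the FMTg signal. Cd74 had 350 UMIs (206 CPM) in the Tg and 253 UMIs (1075 CPM) in the FMTg library (2.38), H2-Aa 27 and 60 UMIs (15.9 and 255 CPM) and H2-DMa 103 and 28 UMIs (0.97). All 6 measured members were at least 1.5-fold higher, against 12.4% of 7075 genes, and 0 were lower, against 19.3%. One FMTg cell held 435 of the 514 member UMIs (84.6%), with 31 B cell marker UMIs, 7 Fn1 and Vcan UMIs and 0 C1q UMIs. Without the highest cell of each library the sum was at 0.43, and without cells carrying a B marker UMI at -1.47. The median cell had 138 CPM in the Tg and 165 CPM in the FMTg library, and 140 of 147 Tg and 22 of 24 FMTg cells had fewer than 10 member UMIs. The B marker list was at 9.42 CPM with 4 of 10 detected in Tg and 161 CPM with 8 of 10 detected in FMTg cells.

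**Figure D4:**
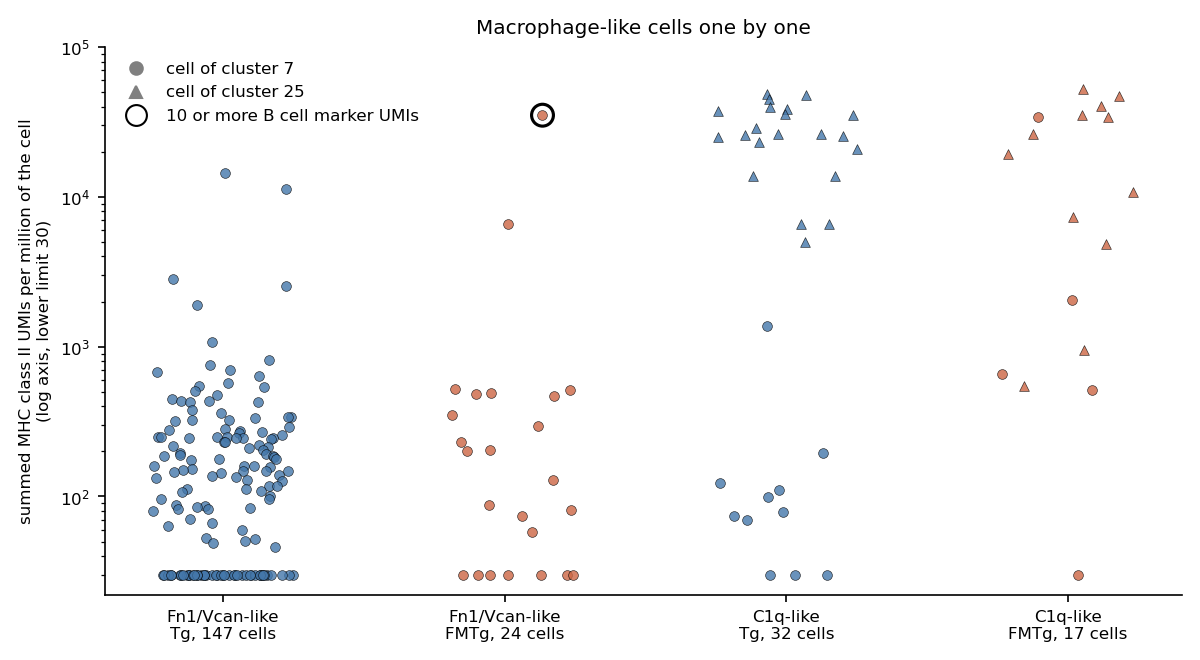
Class II level of each macrophage-like cell in CPM of the cell, on a log axis, by subtype and library, with circles for cells of the Fn1-led cluster 7, triangles for cells of the C1q-led cluster 25 and the lowest points for cells at or below 30 CPM. The triangles lie highest as a group, and the ringed FMTg Fn1/Vcan cell, which holds 435 member UMIs and 31 B cell marker UMIs, stands above the other 23.

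In the C1q subtype the protease gene Lgmn was at 1.11, Ctss at 0.41 and Ctsl at -0.27, with 1 of 5 partners past 1.5-fold. Class I genes had a median of 0.53 with 4 of 10 higher and 1 lower. H2-K1 was at 0.68, Tap1 at 0.94, Tap2 at 0.71, Tapbp, which bridges class I to the peptide transporter, at 0.68 and Psmb8 at -0.90. Of 4 interferon gamma genes 2 were lower, with Ifngr1 at -0.63. Whether these values also split by cluster was not tested. In the Fn1/Vcan subtype the class I gene H2-T23 was at 1.71 (0.87 to 2.51) and Cd86 at 0.61 (-0.33 to 1.46).

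T-like cells (1200 Tg and 1092 FMTg cells) carried little class II. The sum was 207 CPM in the Tg and 228 CPM in the FMTg library (0.14, 0.02 to 0.25), with a median of 1 member UMI per cell and 526 and 533 cells at 0. B cell markers stood at 1.07% and 1.08% of their B-like level. At that rate free B cell RNA would carry 278 and 239 CPM, or 134% and 105% of the observed sum, but the match was not seen member by member, and the part of free RNA was not tested. The highest FMTg cell held 18.3% of the member UMIs, and without the highest cell of each library the ratio was -0.12.

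Single members of T-like cells lay on both sides of that carried level. The level carried was above the observed one for H2-Aa (267% and 146% of it), H2-Ab1 (177% and 109%) and Cd74 (263% and 179%). H2-Eb1 had 403 UMIs (67.5 CPM) in the Tg and 289 UMIs (56.5 CPM) in the FMTg library (-0.26, -0.48 to -0.04), of which 54.9% and 54.7% would be carried. H2-DMa had 34.7 and 36.5 CPM (0.08), of which 14.3% and 12.8% would be carried. Cd74 was at 61.5 and 73.9 CPM (0.27, 0.05 to 0.48), H2-Ab1 at 17.3 and 25.8 CPM (0.58, 0.20 to 0.97) and H2-Aa at 12.7 and 22.9 CPM (0.85, 0.42 to 1.28). H2-Aa was the 1 of 7 measured members at least 1.5-fold higher and 0 were lower, against 4.92% higher and 8.01% lower of 10655 genes. It had 76 and 117 UMIs in all. One FMTg cell held 213 member UMIs, and without the highest cell of each library Cd74 was at -0.20 (-0.43 to 0.03), H2-Ab1 at 0.39 (-0.02 to 0.80), H2-Aa at 0.42 (-0.04 to 0.88) and H2-Eb1 at -0.46 (-0.70 to -0.23). The direction of Cd74 therefore turned on 1 cell, and Cd74 was higher in 6 of 15 alternative settings.

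The H2-Eb1 UMIs of T-like cells were spread over many cells in the 2 largest clusters and held by few cells in a small one. In cluster 0, led by granzyme genes, there were 215 UMIs (50.9 CPM) in the Tg and 83 (32.6 CPM) in the FMTg library (-0.64, -1.02 to -0.27). In cluster 2, with Cd8b1 and Trdc among its leading genes, there were 104 (75.6 CPM) and 82 (50.1 CPM), at -0.59 (-1.03 to -0.16). Over all T-like cells, 153 Tg and 104 FMTg cells carried H2-Eb1 and no UMI of H2-Aa, H2-Ab1 or Cd74. In the small cluster 12, with 17 Tg and 96 FMTg cells, the top 5 Tg cells held 83.1% of the 71 Tg H2-Eb1 UMIs, and 1 FMTg cell held 51 of the 97 FMTg H2-Eb1 UMIs. Few list genes in T-like cells were past 1.5-fold, with 0 of 11 interferon gamma and 0 of 11 class I genes past 1.5-fold, 1 of 10 regulators higher (Irf4 at 0.88) and 2 of 6 partners higher, H2-Oa at 1.06 and the costimulatory gene Cd80 at 1.43 (0.70 to 2.20).

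The ratio between members of a pair, which does not depend on the class total, separated some of the classes. H2-DMb2 UMIs per H2-DMb1 UMI numbered 2.22 (1.91 to 2.58) in Tg and 3.59 (3.04 to 4.27) in FMTg B-like cells and 2.54 and 2.50 in germinal-centre B-like cells. In villus cells the ratio was 0.006 (0.002 to 0.014) and 0.012, and in crypt cells H2-DMb2 had 0 UMIs against 39 and 83 of H2-DMb1. C1q macrophages had 0.040 and 0.028. Fn1/Vcan macrophages had 0.111 and 0.455 (0.124 to 1.42) and T-like cells 0.224 and 0.171, all on few H2-DMb2 UMIs. H2-DMb2 UMIs thus stood above H2-DMb1 UMIs in both B classes and far below them in epithelium and C1q macrophages, in both libraries. The reference transcripts of the 2 genes are 94.4% identical over 1255 aligned bases, which limits how well whole reads can be assigned. Over the last 300 bases, where 3′ tags lie, they are 75.5% identical and the longest identical run is 23 bases.

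H2-Eb1 UMIs per H2-Ab1 UMI also differed by class. The ratio was 1.21 and 1.10 in B-like cells and 1.14 and 1.25 in crypt cells, but 0.453 and 0.423 in villus cells. It was 0.597 and 0.743 in C1q macrophages and 0.450 and 0.656 in Fn1/Vcan macrophages. T-like cells had 3.91 and 2.19, the highest among the classes plotted here. The order of villus, C1q macrophage and B-like cells was the same in both libraries.

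**Figure D5:**
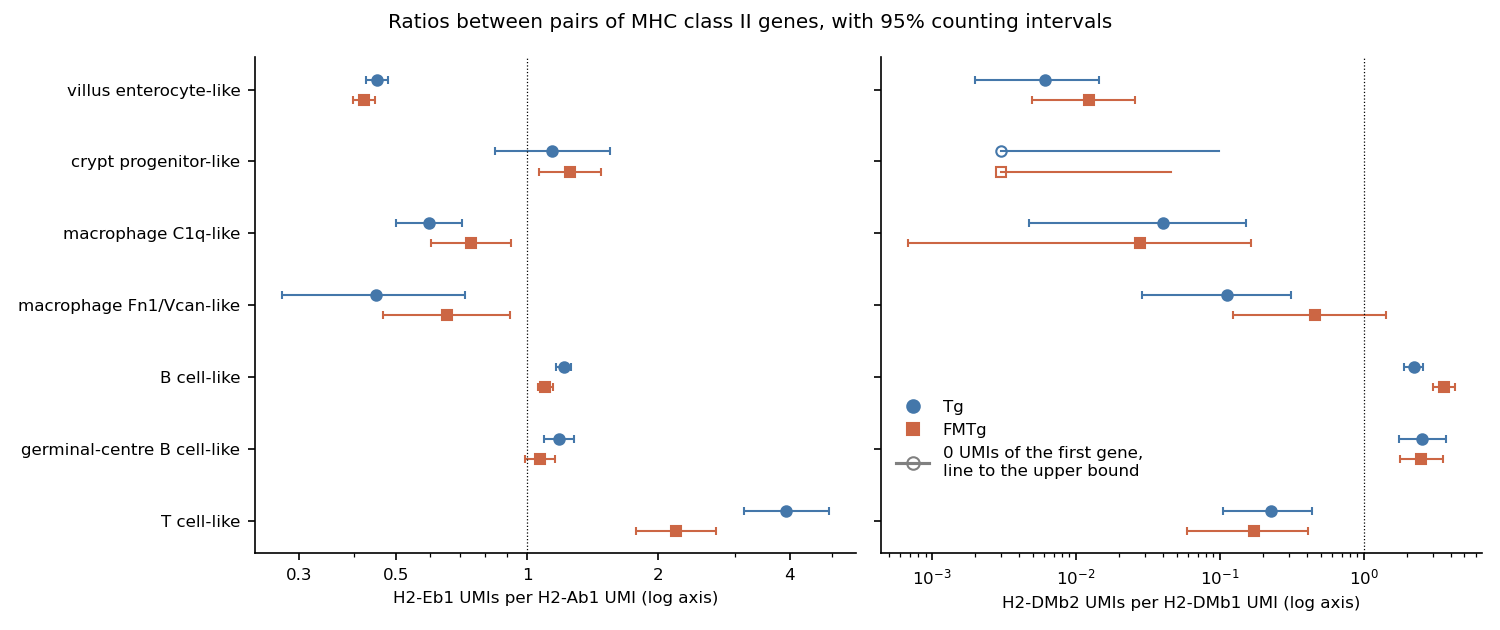
UMIs of H2-Eb1 per H2-Ab1 UMI (left) and of H2-DMb2 per H2-DMb1 UMI (right) in each class on log axes, with circles for Tg, squares for FMTg and 95% counting intervals; the dotted line is equality. Both B cell classes lie right of equality in the right panel, at 2.22 to 3.59, and epithelium lies far to its left.

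Across the 9 classes with at least 20 cells in each library (18 points), which leave out C1q macrophages and crypt cells, the genes whose log2(CPM + 1) pattern was most like that of the members' sum, of 11535 compared, included Bach2 (Pearson r of 0.905), Bend5 (0.894), Cd79a (0.887), Vpreb3 (0.880), Ms4a1 (0.874), Fcmr (0.871), Fcrl1 (0.868), Tnfrsf13c (0.864) and Slc9a7 (0.862). Several of these are B cell genes, Cd79a being part of the B cell receptor, and Cd79a, Ms4a1 and Fcmr were among the B cell markers used to name that class. Each member was also set against the sum of the other 7. H2-Ab1 (0.991), H2-Aa (0.990) and Cd74 (0.980) lay closest, then H2-Eb1 (0.934), Ciita (0.831), H2-DMb2 (0.820), H2-DMa (0.808) and H2-DMb1 (0.683). The points share libraries and classes, so these values describe the pattern only.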

How the data were processed

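Per the labels' protocols, single cells of small intestine were captured with the 10x Genomics Chromium 3′ kit. The authors deposited filtered UMI counts per gene and barcode, and per the submitters' processing notes CASAVA 1.8.1, Cell Ranger 3.0 and the mm10 build were used; for the annotation release and counting settings, the sources used here give nothing. The Tg library had 6270 barcodes and 54013005 UMIs, the FMTg library 6382 and 49805718.

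From these counts, barcodes with under 500 UMIs or 300 genes (257 Tg, 210 FMTg), then over 25% mitochondrial UMIs (2946, 3353), then called doublets (154 and 144, Scrublet in scanpy 1.11.5) were left out. Cells of both libraries were clustered together without batch correction on 2000 variable genes, 30 components and 20 neighbours (leidenalg 0.10.2, resolution 1), with the 8 members left out of the variable genes. Of 27 clusters, those whose markers did not give 1 type stayed unnamed. Macrophage-like cells were C1q where C1qa, C1qb and C1qc outnumbered Fn1 and Vcan. UMIs were summed per class and library, and ratios have exact conditional binomial intervals, levels exact Poisson and shares Clopper-Pearson ones, at 95%. "Measured" means at least 20 UMIs over both libraries, and "past" means at least 1.5-fold. On simulated Poisson class sums the intervals covered the true value for 95.5% of genes in B-like, 96.1% in villus, 96.6% in crypt and 95.5% in T-like cells. The simulation holds counting error only, as the intervals assume, so it cannot show how they behave with spread between cells. Transcripts were aligned with Biopython 1.88.

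The members, lists and naming rules were chosen with earlier results of these data known, and the rules that name clusters were revised after the clusters were seen. From each list the text names up to 3 genes with the largest ratio among those with at least 50 UMIs and the 2 with the most UMIs. Gbp2, Socs1, Tap1, Tap2, H2-Oa, H2-T23 and Irf4 are in places named outside that rule, after their values were seen. Ifi30 was not analysed here, and a few genes that the rules name are not reported here.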

Additional observations from a re-analysis of the deposited data

Results flagged for a closer look

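The summed class II level differed in opposite directions between the epithelial classes, with a log2 ratio of FMTg over Tg of 0.54 in villus enterocyte-like cells and -0.60 in crypt progenitor-like cells, both outside counting error. It also differed in opposite directions between C1q macrophage-like cells, at 0.59, and B-like cells, at -0.23. Each group is 1 library, so these differences between classes were not tested. The crypt class rests on 10 Tg cells. The C1q value is -0.41 in the C1q-led cluster alone, where it leans on single cells and its direction is not settled.

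Class II UMIs were also present in the barcodes left out for over 25% mitochondrial UMIs. The summed level there was 1360 CPM in 2946 Tg barcodes and 1966 CPM in 3353 FMTg barcodes, from 28968 and 45339 member UMIs. More epithelial marker than Ptprc UMIs were found in 2502 and 2655 of them.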

How the results depend on the processing

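No paired analysis was possible because each genotype had 1 library. Values are log2 ratios of the summed members, FMTg over Tg. In B-like cells (-0.23) the sum was lower under all 14 alternatives, from -0.39 at a 10% mitochondrial limit, -0.25 with no limit and -0.21 with doublets kept to -0.18 with totals without mitochondrial and abundant genes, -0.15 with DESeq2 size factors and -0.14 with TMM scaling. In villus cells (0.54) it was higher under all, at 1.20 (56 and 9 cells) at 10%, 0.35 at 50%, 0.39 with no limit, 0.57 with at least 1000 UMIs, 0.59 with doublets kept, 0.44 with TMM, 0.45 with DESeq2 factors, 0.48 with the reduced totals, 0.63 with equal weight per cell and 0.59 without cells carrying B marker UMIs. In crypt cells (-0.60) it was lower under all, at -0.21 at 10%, -0.25 with equal weight per cell and -0.72 without B marker cells.

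C1q macrophages (0.59) were at 5.35 (7 and 2 cells) at 10%, -0.36 with no limit, 0.48 with TMM, 0.39 with DESeq2 factors, 0.70 with reduced totals, 0.041 with equal weight and 1.47 without B marker cells. With no limit H2-Aa was at -0.25, H2-Eb1 at -0.016 and H2-DMb1 at -0.66, and with equal weight H2-DMb1 was at -0.10. Fn1/Vcan macrophages (2.61) were at -0.53 at 50%, -1.47 without B marker cells, 1.38 with markers required in each cell, 2.11 with at least 1000 UMIs, 2.09 with doublets kept and 2.30 with equal weight. At 50% H2-Ab1 was at -2.87, H2-Eb1 at -0.13, Cd74 at -1.48 and H2-DMb1 at -1.30. Without B marker cells they were at -0.42, -0.82, -1.86 and -0.87, and with markers required in each cell H2-DMb1 was at -0.70.

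T-like cells (0.14) were at -0.15, -0.18 and -0.19 with the 10%, 50% and no limit, -0.12 with at least 1000 UMIs, -0.14 with equal weight, -0.024 with markers required in each cell, -0.34 without B marker cells and 0.31 at resolution 2. All kept cells (0.20) were at -0.024 at 10%, 0.10 at 50%, 0.26 with no limit, 0.14 with TMM, 0.12 with DESeq2 factors, 0.16 with reduced totals and 0.016 with equal weight. The causes were not tested.

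Settings chosen after the data were seen left out the highest cell of each library (crypt -0.48, C1q 0.84, Fn1/Vcan 0.43 with H2-Ab1 at -0.25 and H2-DMb1 at -1.25, T-like -0.12), kept only the germinal-centre B-like cells with more B than T marker UMIs (-0.33 against -0.14), left out the highest Fn1/Vcan cell from the fold of C1q over Fn1/Vcan (35.4 against 26.0 in the Tg and 39.5 against 6.41 in the FMTg library), left out clusters with over 80% FMTg cells (villus 0.61, T-like -0.071) or counted the haemoglobin-led cluster as B-like (no member past 1.5-fold, a count of 0).

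The count of members past 1.5-fold was 1 in B-like cells and 0 in 9 alternatives, 1 in villus cells and 0 to 3 elsewhere, 3 in crypt cells (1 at 10%, 5 without B marker cells), 4 in C1q cells (0 to 2 in 4 alternatives), 1 in T-like cells (0 to 3) and 0 in all cells (1 at 10%). Of 691 alternative values for single genes in 49 gene and class pairs, 631 kept their sign. The 25% mitochondrial limit removed more barcodes than were kept. The crypt class has 10 Tg cells and the C1q class 17 FMTg cells.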

Other observations

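A small cluster led by mast cell and dendritic cell genes, left unnamed, had class II levels of 23371 CPM in the Tg and 31903 CPM in the FMTg library. Its cells with more dendritic than mast cell marker UMIs, such as Cd209a and Clec10a, were 21 in the Tg and 6 in the FMTg library and stood at 28076 and 37729 CPM, from 7613 and 2662 member UMIs. The cells with more mast cell marker UMIs, 6 and 2 in number, held 1 member UMI in each library. A cluster led by haemoglobin genes together with B cell genes, also unnamed, held 40 and 64 cells at 24174 and 18896 CPM.

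Among secretory epithelium, goblet-like cells (121 Tg and 44 FMTg) were at 311 and 464 CPM. Tuft-like cells (51 and 62) were at 37.8 and 120 CPM, and 1 FMTg cell held 66.9% of the FMTg tuft UMIs. Enteroendocrine-like cells (15 and 16) were at 63.2 and 671 CPM, where 1 FMTg cell held 39.6% of 159 UMIs. Plasma-like cells (21 and 31) were at 2368 and 3016 CPM.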
